A study of Rattus norvegicus with 294 samples.

Results

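Bone lining cells are the flat cells that cover bone surfaces on which no bone is being laid down. Sclerostin, a protein secreted by osteocytes, binds Wnt co-receptors and holds back Wnt signalling in cells of the osteoblast lineage, and antibodies against it raise bone formation. Lining cells are known to turn back into matrix-producing osteoblasts when such an antibody is given. The question addressed here was how lining cells under a high dose of a sclerostin antibody differed from lining cells under a low dose, gene by gene.

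The comparison held 40 of the 294 arrays of the series, all of them Affymetrix rat expression arrays of lining cells. They were 20 arrays from rats dosed at 50 mg/kg and 20 from rats dosed at 3 mg/kg, with 5 per dose on each of days 8, 29, 85 and 183. All rats of both doses, and the vehicle controls, were female Sprague-Dawley rats ovariectomized at 6 months of age and left without treatment for 8 weeks, a model of bone loss through lack of oestrogen. They then received subcutaneous injections once a week of Scl-Ab, a sclerostin antibody engineered to provoke less of an immune response in rats, or of vehicle. Lining cells were enriched by laser capture from frozen sections of the third lumbar vertebra, with calcein given to the rats to mark the surfaces where bone was forming. The 20 vehicle arrays of the same days served as the background. The members were chosen by cell type, dose and day alone, so no measured value entered the choice.

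The design text describes sections from 5 rats per treatment and time, which matches the 5 arrays per group, but the labels do not tie an array to a rat. P-values therefore measure the spread between these arrays. Each array read the pooled RNA of a captured strip of bone surface, so that fewer cells of a type and less RNA per cell cannot be told apart. In vehicle arrays, where the cell types may have been normalized apart, Col1a1, a chain of type I collagen, had a median signal of 404 in lining cells, 1607 in osteoblasts and 2224 in osteocytes. These values come from the probe set with the highest mean over all arrays. The lining cell results below read Col1a1 from another probe set, with a vehicle median of 541. Mepe, a matrix protein of osteocytes, had a median of 113 in lining cells, 113 in osteoblasts and 2757 in osteocytes. The osteoclast protease Ctsk stood at a median of 6456 in lining cells, so the captured strips were not free of transcripts of other bone cells. Correlations between the 40 arrays ran from 0.911 to 0.987, and no pair of arrays was identical.

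Between the doses, 74 of 11600 genes differed in the mean over the 4 days (0.638% of the genes tested, limma, Benjamini-Hochberg adjusted p under 0.05). Of these, 40 were higher at 50 mg/kg (0.345%) and 34 were lower (0.293%). The higher genes included 3 bone matrix genes, led by Col11a1, and genes known from megakaryocytes and platelets, such as Clec1b and Plek. The lower genes included 3 T cell markers, led by Cd3d, and genes of secreted proteins such as Spp1, Cxcl14 and Gas6. All differences below are 50 minus 3 mg/kg on the log2 scale of the deposited signal, where 1 is a doubling, and the SE is that of the difference. They were modest: the extremes were 1.09 for Col11a1 and -0.998 for Spp1, and the median of all genes was 0.00. At an unadjusted p under 0.05 there were 1493 genes. Just inside the threshold lay Rac1 (adjusted p = 0.0497) and Npff (0.0459), and just outside lay Nalf1 and Sit1 (both 0.0547).

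**Figure D1:**
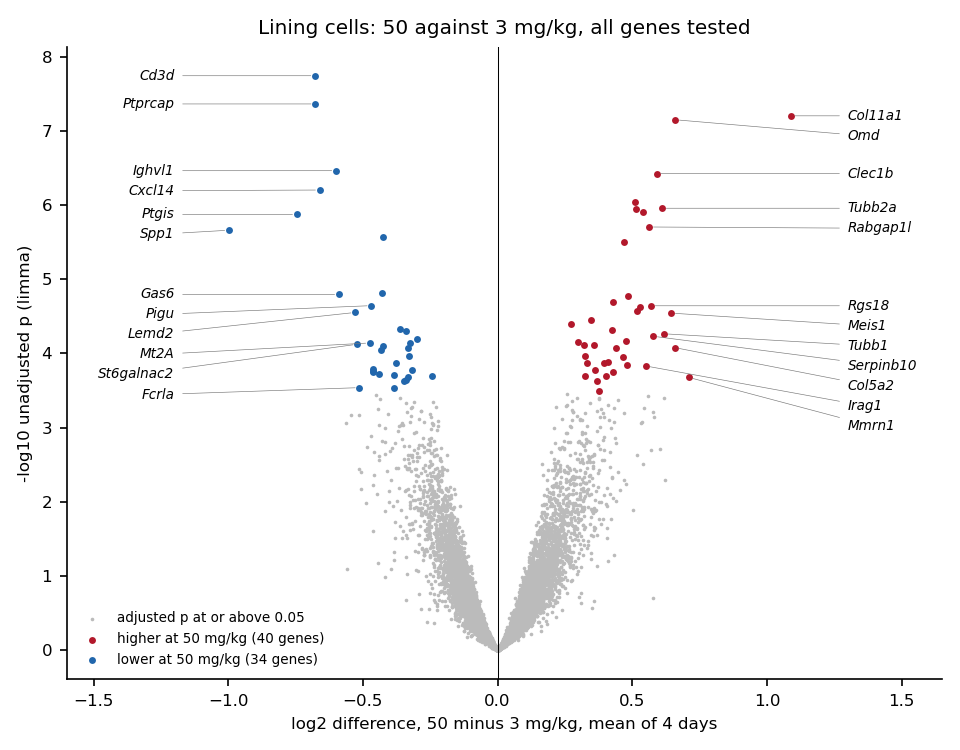
Each point is a gene tested in lining cells; the horizontal axis is the log2 difference of 50 minus 3 mg/kg averaged over 4 days and the vertical axis is -log10 of the unadjusted limma p. The 40 higher genes are red and the 34 lower genes are blue, and names mark the 12 largest of each, with Col11a1 at 1.09 and Spp1 at -0.998 farthest out.

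The gene that rose most was Col11a1, which encodes a chain of type XI collagen, a minor fibrillar collagen that matrix-forming cells co-assemble with the major ones. On day 29 its signal was 92.1, 180.2, 46.8, 143 and 167 in the 5 arrays at 50 mg/kg, against 18.1, 10.1, 31.6, 40.7 and 26.9 in the 5 arrays at 3 mg/kg. Every array at 50 mg/kg was thus above every array at 3 mg/kg on that day, which held for 0.388% of the genes tested. The mean difference of Col11a1 over 4 days was 1.09 (SE 0.18, limma adjusted p = 0.000206). Its difference was 0.71 on day 8, 2.30 on day 29, 1.34 on day 85 and 0.00 on day 183, and the daily values passed the test on days 29 and 85 (adjusted p = 0.000159 and 0.0408). On day 183 the signal was 12.5 to 23.1 at 50 mg/kg against 12.3 to 21.8 at 3 mg/kg, with the groups overlapping. Without day 29 the mean difference was 0.68 and no longer passed (adjusted p = 0.103).

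Omd, osteomodulin, a small proteoglycan of mineralised matrix, was high early in the same way. On day 8 it stood at 65.5, 33.5, 14.2, 58.1 and 58.3 at 50 mg/kg, against 11.4, 20.8, 12.6, 28.2 and 21.0 at 3 mg/kg. In 4 of the 5 arrays at 50 mg/kg it exceeded all arrays at 3 mg/kg on that day, and the remaining array lay within their range. On day 29 Omd stood at 42.1, 48.3, 28.6, 25.1 and 17.3 at 50 mg/kg, against 12.04, 8.63, 12.4, 15.7 and 16.01 at 3 mg/kg, with no overlap. The daily differences of Omd were 1.18, 1.26, -0.08 and 0.28, the mean was 0.66 (SE 0.11, adjusted p = 0.000206), and without day 29 the mean was 0.46 (adjusted p = 0.0586). Col5a2, a chain of type V collagen that helps to set fibril diameter, was the third matrix gene to pass, with a mean difference of 0.66 (SE 0.16, adjusted p = 0.0221). On day 29 Col5a2 was 215, 361, 164, 329 and 358 at 50 mg/kg, against 83.8, 73.3, 100.4, 145 and 122 at 3 mg/kg, again with no overlap. Leaving out the third array at 3 mg/kg on day 8 ended the call of Col5a2 (adjusted p = 0.0514), and without day 29 its mean was 0.40 (adjusted p = 0.32).

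Of 26 bone matrix genes tested, 3 passed upwards in the mean difference and 1, Spp1, passed downwards. The median of the 26 was 0.28, and 19 lay above 0. Their medians by day were 0.26, 0.59, 0.04 and 0.08, against medians of all genes of -0.00, 0.02, -0.05 and 0.04. On day 85 the list held calls both ways, Col11a1 higher and Spp1, Postn and Tnc lower. Day 29 held more of the calls than any other day: 6 members were higher there, among only 8 genes that were higher on that day in all (0.069% of the genes tested). Besides Col11a1, Col5a2 and Omd these were Col5a1 (1.09, adjusted p = 0.0321), Col11a2 (1.32, adjusted p = 0.00282) and Cthrc1 (1.58, adjusted p = 0.0321). Cthrc1, a secreted glycoprotein of matrix-producing cells, stood at 91.4, 206, 93.0, 161 and 181 at 50 mg/kg on day 29, against 46.1, 17.4, 51.8, 80.8 and 64.7 at 3 mg/kg, and these values did not overlap.

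Some other bone matrix transcripts, such as Col1a1 and Bglap, had positive values on day 29 but did not pass. Of the 26 matrix genes, 17 lay above 0 on that day. Col1a1 was 1636, 1418, 867, 1487 and 1691 at 50 mg/kg, against 486, 537, 748, 713 and 716 at 3 mg/kg on that day, and no array overlapped. The difference of Col1a1 was 1.13 on day 29 (adjusted p = 0.397) and 0.60 in the mean (adjusted p = 0.108). Col1a2, its partner chain, had 0.62 in the mean (adjusted p = 0.154). Bglap (osteocalcin) had 0.99 on day 29 and 0.16 in the mean, and Alpl, the tissue alkaline phosphatase, had 0.05 in the mean (adjusted p = 0.820 for Bglap). Over the 26 matrix genes the summed signal on day 29 averaged 11260 (range 7580.5 to 14227) at 50 mg/kg, against 5808 (4110.5 to 7018) at 3 mg/kg. On day 183 the sum averaged 3118 at 50 mg/kg, against 3268 at 3 mg/kg, with overlapping ranges.

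Of the insulin-like growth factor system, Igfbp3, a binding protein that carries these factors, was higher (mean 0.43, SE 0.10, adjusted p = 0.0186). On day 29 Igfbp3 stood at 23.6, 27.2, 42.5, 32.1 and 15.0 at 50 mg/kg, against 13.0, 9.60, 14.2, 11.98 and 11.4 at 3 mg/kg. The groups did not overlap on that day, the daily difference was 1.15, and on the other days it lay between 0.02 and 0.29. Without day 29 the mean of Igfbp3 was 0.18 and did not pass (adjusted p = 0.526). Of the 10 genes of this system tested Igfbp3 was the only one that passed, and the median was 0.07.

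**Figure D2:**
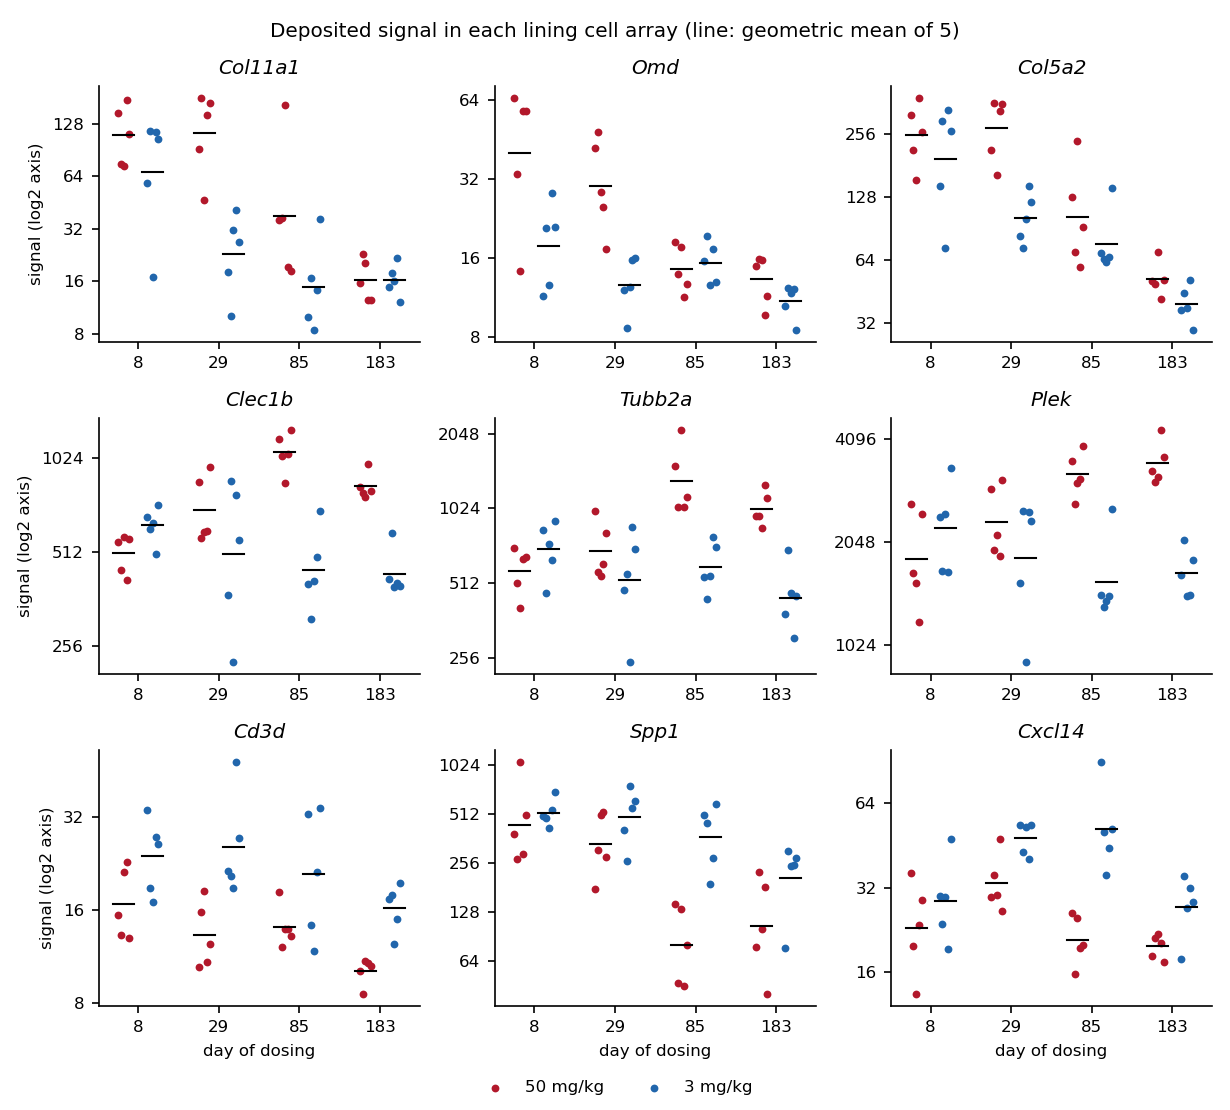
Each panel gives the deposited signal of a gene (vertical axis, log2 spaced) in each lining cell array by day of dosing, with the 5 arrays at 50 mg/kg in red to the left of the 5 at 3 mg/kg in blue and a line at each geometric mean. The matrix genes in the top row part on day 29 and overlap on day 183, the platelet genes in the middle row part on days 85 and 183, and Cd3d, Spp1 and Cxcl14 in the bottom row are lower at 50 mg/kg.

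The second set of higher genes is known from megakaryocytes, the marrow cells that shed platelets. Clec1b, the platelet receptor for podoplanin, stood at 1178, 1045, 851, 1056 and 1264 at 50 mg/kg on day 85, against 405, 312, 413, 496 and 694 at 3 mg/kg. On day 183 it was 829.6, 794, 770.0, 982 and 802 at 50 mg/kg, against 419, 590, 395, 408 and 400.2 at 3 mg/kg. On both days every array at 50 mg/kg was above every array at 3 mg/kg, a separation that 0.552% of the genes tested showed on day 85 and 2.64% on day 183. The daily differences of Clec1b were -0.30, 0.47, 1.26 and 0.93, and its mean was 0.59 (SE 0.11, adjusted p = 0.000732). Without day 85 the mean was 0.37 (adjusted p = 0.235), and without day 183 it was 0.48 (adjusted p = 0.052).

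Plek, pleckstrin, the major protein kinase C substrate of platelets, was 3542, 2653, 3046, 3140 and 3919 at 50 mg/kg on day 85, against 1430, 1318, 1376, 1424 and 2558 at 3 mg/kg. Its groups were apart on days 85 and 183 and overlapped on days 8 and 29, and its mean difference was 0.54 (SE 0.10, adjusted p = 0.00129). Tubb2a, a beta tubulin, was 952, 951, 856, 1274 and 1126 at 50 mg/kg on day 183, against 384, 697, 466, 307 and 456 at 3 mg/kg, with a mean difference of 0.61 (SE 0.12, adjusted p = 0.00129). Tubb1, the beta tubulin of the platelet's marginal band, had 0.62 (adjusted p = 0.0197), and Rgs18, a regulator of G protein signalling in platelets, had 0.57 (adjusted p = 0.012). Selp (P-selectin, stored in platelet granules) had 0.52 (adjusted p = 0.0128) and Mmrn1 (multimerin, stored in platelets and endothelium) had 0.71 (adjusted p = 0.0359). Mmrn1 was the least stable of these, since leaving out any of 17 single arrays ended its call. Without day 183 the calls of all 6 of these genes ended, with means of 0.36 for Plek, 0.415 for Tubb2a, 0.40 for Tubb1, 0.47 for Rgs18, 0.32 for Selp and 0.39 for Mmrn1. They ended without day 85 as well, with means in the same order of 0.37, 0.43, 0.48, 0.42, 0.56 and 0.59. That of Selp was thus not smaller without day 85 (adjusted p = 0.081). With the mean of its probe sets Selp was 0.28 and did not pass (adjusted p = 0.0505).

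Meis1, a homeobox factor of blood stem cells and megakaryocytes, stood at 128, 119, 157, 236 and 167 at 50 mg/kg on day 183, against 42.7, 92.9, 43.1, 57.1 and 81.0 at 3 mg/kg. Serpinb10, a protease inhibitor of blood-forming cells, stood at 381, 317, 458, 669 and 475 at 50 mg/kg on that day, against 91.6, 220.0, 176, 116 and 208 at 3 mg/kg. Neither gene's groups overlapped on day 183, and their mean differences were 0.64 and 0.58 (adjusted p = 0.0128 and 0.0206). Without day 183 these were 0.40 for Meis1 and 0.26 for Serpinb10, and neither passed (adjusted p = 0.307 and 0.554). Irag1, a target of cyclic GMP kinase in platelets and smooth muscle, had 0.55 (adjusted p = 0.0312, a call lost without any of 9 single arrays), and Rabgap1l, a regulator of Rab proteins, had 0.56 (adjusted p = 0.00177). F5, coagulation factor V (0.48), and Gucy1a1, a subunit of the nitric oxide receptor (0.48), which were picked out after their values were seen, were also called. Without day 183 Irag1 was 0.35, F5 0.23 and Gucy1a1 0.26, and their calls ended.

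Of 11 megakaryocyte markers tested, 1 (Selp) passed in the mean difference and all 11 had values above 0, with a median of 0.35. By day the median was -0.50, 0.32, 0.51 and 0.90, and 0, 0, 2 and 6 members passed. The 6 that were higher on day 183 were Selp, Itga2b, Pf4, Gp5, Alox12 and Treml1, and their differences ran from 0.76 to 1.27. Pf4, platelet factor 4, stood at 5228, 4182, 3944, 5295 and 5300 at 50 mg/kg on day 183, against 3167, 3268, 2720.0, 2236 and 2728 at 3 mg/kg. The summed signal of the 11 markers on day 183 averaged 7066 (range 5841 to 8118) at 50 mg/kg, against 3973 (3303 to 4639) at 3 mg/kg. On day 8 the order was the opposite, with a mean sum of 4199 (2960 to 5510.5) at 50 mg/kg and 5835 (4265 to 6942) at 3 mg/kg, and the ranges overlapped. The arrays at 50 mg/kg of day 183 also had a wider signal range, the 90th minus the 50th percentile of log2 signal, with a mean of 2.81 against 2.65 at 3 mg/kg. With the signal range as a covariate all 74 genes were still called in the mean over the 4 days. On day 183 itself that covariate changed the count of called genes from 86 to 70 (60 higher, 10 lower). Some other marrow markers, but not all, were higher in the same day 183 arrays: the granulocyte sum averaged 28140 (26153 to 30965) at 50 mg/kg, against 20970 (20106 to 22858) at 3 mg/kg, with no overlap. The macrophage sum averaged 9775 (8800.4 to 10816) at 50 mg/kg, against 8238 (7256 to 8892) at 3 mg/kg, with a slight overlap, and of 13 macrophage markers 1, Slc40a1, was called on that day (0.68) with a median of 0.28. The erythroid sum on day 183 averaged 14040 (11132 to 15888) at 50 mg/kg, against 14450 (12553 to 17378) at 3 mg/kg. On that day the median difference was -0.35 for B-lineage markers and -0.21 for T and natural killer cell markers. The part of megakaryocytes and other marrow cells in the differences of the higher genes was not tested.

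Promoters were shown for the higher genes whose window held AGATAA, a sequence that GATA factors are known to bind, because GATA1 is a leading regulator of megakaryocyte genes and several of those were among the higher genes. The motif was chosen after the values were seen. Windows ran from 250 bases before to 50 after the start in each gene's first promoter entry. That start can differ from the listed start of the gene, as for Clec1b, Irag1, Mmp8 and Serpinb10. In Clec1b and Mmp8 the motif shown began at the listed start of the gene and not upstream of it. The windows were read on both strands from RefSeq (GRCr8). AGATAA was found in 6 of the 36 higher genes with a window (16.7%), in 1 of 26 lower genes (3.85%), in 6.38% of 9645 genes tested and in 11.6% of all 33469 promoters of the table. The 6 stretches below read 5′ to 3′ along the gene, with the motif in capitals, as AGATAA or as its reverse complement TTATCT.

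Clec1b: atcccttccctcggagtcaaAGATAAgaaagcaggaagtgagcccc
Irag1: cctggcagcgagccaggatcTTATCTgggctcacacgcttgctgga
Mmp8: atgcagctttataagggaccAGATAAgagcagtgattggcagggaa
Rgs18: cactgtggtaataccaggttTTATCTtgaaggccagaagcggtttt
Sema3c: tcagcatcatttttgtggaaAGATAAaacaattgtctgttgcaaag
Serpinb10: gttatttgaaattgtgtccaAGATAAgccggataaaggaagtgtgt

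These stretches lie at chr4:164533967-164534012 on the plus strand for Clec1b, chr1:174528906-174528951 on the minus strand for Irag1, and chr8:13008853-13008898 on the plus strand for Mmp8. Rgs18 is at chr13:59066407-59066452 on the minus strand, Sema3c at chr4:18699819-18699864 on the minus strand, and Serpinb10 at chr13:24067905-24067950 on the plus strand. Sema3c, a secreted guidance cue, held 3 copies of the motif in its window, of which the stretch shows 1. Clec1b, Irag1, Rgs18 and Serpinb10 are among the genes that were higher late in dosing, while Mmp8, a collagenase of granulocytes, was higher by 0.36 (adjusted p = 0.0217) with daily values of 0.27, 0.57, 0.08 and 0.50. CTTTGA, which TCF/LEF factors of the Wnt pathway bind, was in 8.33% of the higher genes' windows, 19.2% of the lower genes' and 12% of those of genes tested. ACCACA, which RUNX factors bind, was in 13.9% of the higher, 11.5% of the lower and 12.8% of the tested genes' windows. A match describes the letters of the window and does not show binding.

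The most stable lower gene was Cd3d, a chain of the T cell receptor complex. Over all days Cd3d ran from 8.55 through a median of 13.1 to 23.0 in the 20 arrays at 50 mg/kg, against 11.8, 20.1 and 48.3 in the 20 arrays at 3 mg/kg. Signals of the series ran from 2.94 to 28282, so Cd3d was read near the low end. On day 183 it was 10.1, 8.55, 10.9, 10.8 and 10.6 at 50 mg/kg, against 17.3, 17.9, 12.4, 15.0 and 19.6 at 3 mg/kg, with no overlap, a separation downwards that 0.828% of the genes tested showed. All 20 arrays at 50 mg/kg lay below the 3 mg/kg mean of their own day, which held for 5 of the 34 lower genes. Over all 11600 genes tested, the 20 arrays lay on the side of the mean difference for 6. The mean difference chose the 34, so this is no separate test. The mean difference of Cd3d was -0.68 (SE 0.11, adjusted p = 0.000206), with daily values of -0.52, -0.95, -0.57 and -0.68. It was the only 1 of the 74 genes that passed under every alternative processing and with every array or day left out.

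Cd3e, another chain of the same complex, had a mean difference of -0.42 (SE 0.08, adjusted p = 0.0021). On day 29 Cd3e stood at 16.01, 21.0, 19.2, 16 and 13.2 at 50 mg/kg, against 26.6, 24.5, 31.3, 24.1 and 36.9 at 3 mg/kg, and the groups were apart. That separation downwards held for 0.302% of the genes tested on that day. With the mean of probe sets the day 29 difference of Cd3e was -0.37 and did not pass (limma adjusted p = 0.228). Its mean over the days was -0.32 without day 29 and -0.37 without day 183, and neither passed (adjusted p = 0.0992 and 0.0562). Cd5, a T cell surface glycoprotein, had -0.46 (adjusted p = 0.0338), a call that ended when any of 12 single arrays was left out. Its signals were low as well, with medians of 11.5 at 50 mg/kg and 17.4 at 3 mg/kg. Of 19 T and natural killer cell markers tested, these 3 passed downwards and none passed upwards. The median of the list was -0.22 and 17 members lay below 0. Among markers of cytotoxic cells, none of which passed, values ran from -0.42 for Ccl5 and -0.36 for Cd8a through -0.22 for Gzmm and -0.19 for Cd8b to -0.06 for Prf1 and Nkg7 and -0.05 for Gzmb. The summed signal of the list ranged from 577 to 1236 over the 20 arrays at 50 mg/kg and from 690.4 to 1765 over the 20 arrays at 3 mg/kg, so the doses overlapped. Whether fewer captured T cells took part in these falls was not tested.

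Other lower genes are known from lymphocytes as well. Ptprcap, a protein bound to the CD45 phosphatase, ran from 126 through 241 to 400.3 at 50 mg/kg, against 196, 341 and 503 at 3 mg/kg. It was below the 3 mg/kg mean of the day in 19 of 20 arrays at 50 mg/kg, with a mean difference of -0.68 (SE 0.11, adjusted p = 0.000206). Ighvl1, by its name an immunoglobulin heavy chain gene, was 831, 925, 969, 979.6 and 975 at 50 mg/kg on day 183, against 1297, 2386, 2141, 1526 and 1876 at 3 mg/kg, with no overlap and a mean difference of -0.60 (adjusted p = 0.000732). Fcrla, an intracellular Fc receptor-like protein of B cells (-0.51), and Cd74, the invariant chain of antigen-presenting cells (-0.43), were also called, the call of Fcrla ending when any of 24 single arrays was left out. None of 10 B-lineage markers tested passed in the mean difference. Their median was -0.27, with Ms4a1 (CD20) at -0.48 (adjusted p = 0.105), while the plasma cell genes Mzb1 and Jchain had 0.16 and 0.19.

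Spp1, osteopontin, an acidic matrix protein made by osteoblasts, osteoclasts and lining cells, had the largest fall. On day 85 Spp1 stood at 143, 47.3, 134, 45.1 and 81.1 at 50 mg/kg, against 501, 452, 191, 276 and 588 at 3 mg/kg, and the groups were apart, as in 1% of the genes tested. The mean difference was -0.998 (SE 0.20, adjusted p = 0.00181), with -0.25, -0.55, -2.21 and -0.98 by day. Without day 85 it was -0.59 and did not pass (adjusted p = 0.313). The osteoclast gene Ctsk had -1.19 on day 85 (adjusted p = 0.0288) and -0.54 in the mean (adjusted p = 0.0683), and Acp5, the tartrate-resistant phosphatase of osteoclasts, had -1.17 on day 85 (adjusted p = 0.124). The summed signal of 10 osteoclast markers on day 85 averaged 8058 (range 3688 to 15408) at 50 mg/kg and 10900 (9626 to 12562) at 3 mg/kg. Of these 10 markers 4 lay above 0 on that day, and the median was -0.15. For Car2, another osteoclast marker, every array at 50 mg/kg was above every array at 3 mg/kg on day 85. That separation held for 0.552% of the genes tested. The part of osteoclasts in the fall of Spp1 was not tested.

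Cxcl14, a chemokine, was 25.9, 15.7, 24.9, 19.5 and 19.9 at 50 mg/kg on day 85, against 89.9, 50.3, 35.4, 44.3 and 51.6 at 3 mg/kg. Ptgis, the synthase of prostacyclin, was 34.0, 36.0, 30.5, 20.5 and 17.8 at 50 mg/kg on that day, against 90.2, 61.6, 44.0, 92.9 and 77.3 at 3 mg/kg. Both sets were apart on day 85 and overlapped on the other 3 days, and the mean differences were -0.66 for Cxcl14 and -0.75 for Ptgis (adjusted p = 0.00104 and 0.00129). Without day 85 they were -0.45 and -0.53 (adjusted p = 0.211 and 0.205). Gas6, a ligand of the TAM receptor kinases, stood at 693, 1047, 758, 879 and 737 at 50 mg/kg on day 85, against 1544, 1057, 1208, 2077 and 1504 at 3 mg/kg, with a mean difference of -0.59 (SE 0.13, adjusted p = 0.0103). Cxcl12, the chemokine with which stromal cells hold blood stem cells in marrow, had -0.38 (adjusted p = 0.0298, lost without any of 8 single arrays) and -0.92 on day 85. Without day 85 Cxcl12 was -0.20 (adjusted p = 0.505). Gas6 and Cxcl12 were the 2 members of 20 lining cell and stromal genes that passed, and the median of that list was -0.04, with the metalloproteinase inhibitor Timp3 at the other end (0.58, adjusted p = 0.0667).

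The remaining lower genes named by size were Lemd2, a protein of the inner nuclear membrane (-0.53), St6galnac2, a sialyltransferase (-0.52), Mt2A, a metallothionein (-0.47), and Pigu, a subunit of the enzyme that attaches lipid anchors to proteins (-0.47). With the mean of a gene's probe sets Lemd2 was -0.10 and St6galnac2 -0.22, and without day 29 Mt2A was -0.27, and none of these passed. Pigu, like Cd3d, lay below the 3 mg/kg mean of the day in all 20 arrays at 50 mg/kg. Npff, Vav2 and Paxx, picked out after their values were seen, did so too, with mean differences of -0.39, -0.36 and -0.33.

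The days differed in which way the genes moved. On day 8, 6 genes were called (0.0517%), of which 1, Omd, was higher (0.00862%) and 5 were lower (0.0431%). The largest falls were those of Abca7 (-1.04), a lipid transporter, and Nbeal2 (-0.96), a protein needed for platelet alpha granules. On day 29, 12 were called (0.103%), 8 higher and 4 lower (0.0345% lower), the lower ones being Mt2A (-1.10), Cd69 (-1.06), an activation marker of lymphocytes, Cd3d and Cd3e. On day 85, 156 were called (1.34%), and 119 of them were lower (1.03%). That lean was smaller after quantile normalization (127 higher, 152 lower) and with the signal range as a covariate (115 higher, 128 lower). They included Postn, periostin of fibrous bone surfaces, and Tnc, tenascin C, neither of which passed in the mean (-0.23 and -0.33). Postn was 13.2, 11.0, 5.00, 15.5 and 10.4 at 50 mg/kg on day 85, against 41.5, 33.6, 16.8, 50.7 and 34.4 at 3 mg/kg, with no overlap and a difference of -1.69 (adjusted p = 0.00739). On day 183, 86 were called (0.741%), 77 of them higher (0.664%) and 9 lower (0.0776%), with Mmrn1 (1.67), Serpinb10 (1.53) and the heparan sulfate-cutting enzyme Hpse (1.44) at the top.

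Of the 74 genes, 50 had the same sign on all 4 days (67.6%, against 14.9% of all genes tested, though the mean over the days chose the 74). This was so for 31 of 34 lower genes and for 19 of 40 higher genes. The daily difference was largest on day 183 for 24 of the higher genes and on day 85 for 22 of the lower genes. Over all 11600 genes tested it was largest on day 183 for 3218 and on day 85 for 3797. The signs of several platelet genes on day 8 opposed those of the later days. Whether the dose difference varied over the days was tested gene by gene with an F test in limma, which called 28 genes (0.241%). The smallest p-values belonged to Itgb3 and Pf4 (both adjusted p = 0.0197), followed by Clec1b, Plek and Reep2 (all 0.0273) and Champ1 (0.032). Itgb3, the beta chain of the platelet fibrinogen receptor and of the osteoclast vitronectin receptor, had -0.40, 0.06, 0.51 and 1.09 by day, and Itga2b, its platelet partner, had -0.70, 0.67, 0.46 and 0.99 (adjusted p = 0.0378). Day 183 arrays carry sample names from another block of numbers than those of the other 3 days, so that block and day cannot be told apart, while both doses lie in both blocks.

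**Figure D3:**
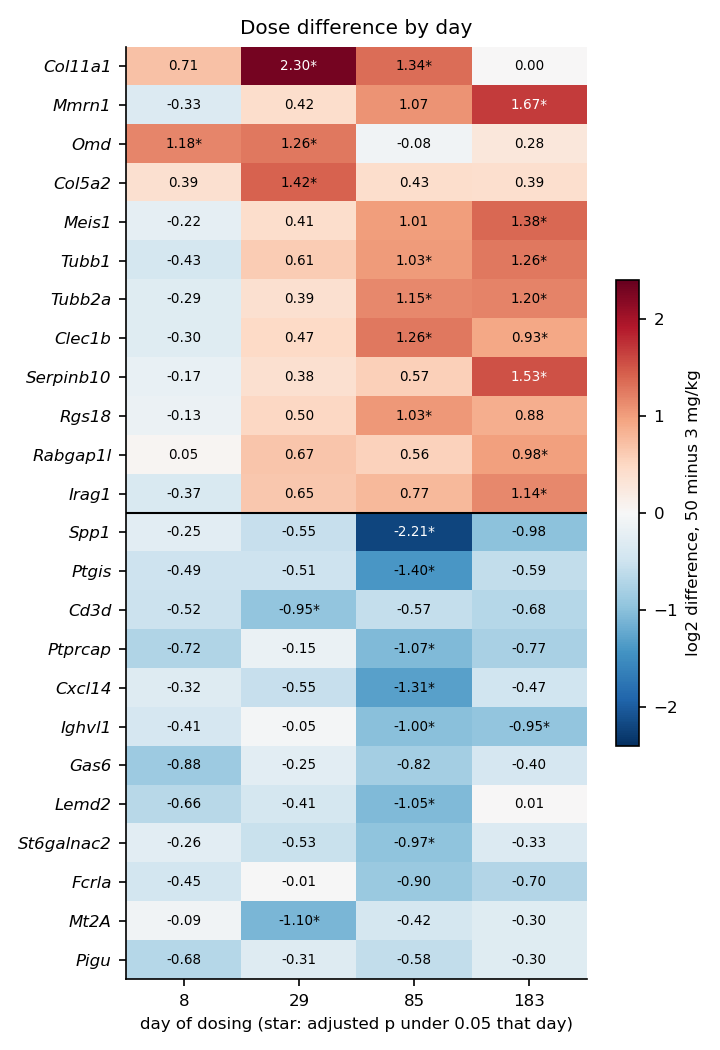
Rows are the 12 genes with the largest rise and the 12 with the largest fall, columns are the days of dosing, and colours and numbers give the log2 difference of 50 minus 3 mg/kg, with a star where the adjusted p of that day was under 0.05. Matrix genes such as Col11a1 (2.30 on day 29) are high early, platelet genes such as Clec1b are high on days 85 and 183, and Spp1 reaches -2.21 on day 85.

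Set beside vehicle, none of the 74 genes passed at the low dose. The contrasts of 3 and 50 mg/kg against vehicle share their 20 vehicle arrays, so they are given side by side only. At 3 mg/kg no gene of 11600 passed in limma (0%), with 761 genes at an unadjusted p under 0.05. At 50 mg/kg 236 genes passed (2.03%), 121 higher (1.04%) and 115 lower (0.991%). Among the 74 genes the difference from vehicle ran from -0.31 to 0.45 at 3 mg/kg, and 49 passed at 50 mg/kg. The 74 were chosen by the dose difference in these same treated arrays. Their values beside vehicle are therefore no separate test. For Col11a1 the differences from vehicle were 0.45 for the low dose and 1.54 for the high dose, and its signal over the 20 arrays had a median of 15.9 in rats given vehicle, 17.9 in those given the low dose and 60.1 in those given the high dose. For Clec1b they were 0.01 and 0.60, for Cd3d 0.07 and -0.61, for Cxcl14 -0.17 and -0.83, and for Ptgis -0.28 and -1.02. Like Cd3d, several lower genes lay on either side of vehicle at the doses: Spp1 had 0.22 at the low dose and -0.78 at the high dose, Lemd2 had 0.32 at the low dose and -0.21 at the high dose, and Pigu had 0.24 and -0.23.

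**Figure D4:**
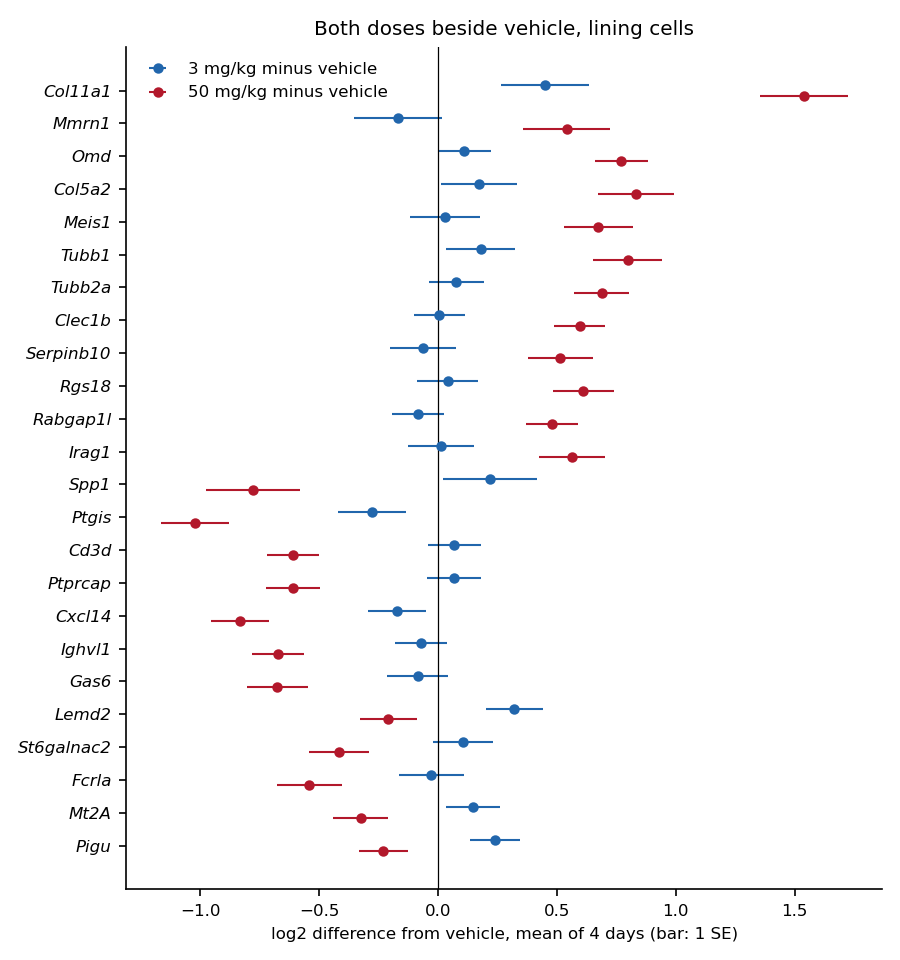
For each of the 24 genes with the largest dose differences the points give the log2 difference from vehicle averaged over 4 days, blue for 3 mg/kg and red for 50 mg/kg, with bars of 1 SE. The blue points lie near 0, up to 0.45 for Col11a1, while the red points reach 1.54 for Col11a1 and -1.02 for Ptgis.

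No Wnt gene list held a call in the mean difference. None of 14 Wnt target genes and none of 9 Wnt antagonists and feedback genes passed in the mean difference, and their medians were -0.12 and -0.07. On day 183 alone 1 Wnt target, Cd44, was higher (0.56) and 1, Fosl1, was lower (-0.56). Lef1, a nuclear partner of beta-catenin, had -0.24 (SE 0.13, adjusted p = 0.454), Ccn4, a secreted Wnt target, had 0.09, and Myc had 0.08. Sost, Axin2, Tnfrsf11b and Tnfsf11 did not reach the signal filter, and Runx2, Sp7 and Dkk1 had no probe set of their own, so these genes were not analysed here. None of 24 collagen synthesis enzymes passed, although Lox, which crosslinks collagen, came near (0.38, adjusted p = 0.0699), and the median was 0.06. None of 38 cell cycle genes passed, with 32 above 0 and a median of 0.07, and none of 36 secretory pathway genes passed (median 0.06). None of 16 erythroid markers passed, and 14 of them lay above 0 with a median of 0.16. Of 11 granulocyte markers Mmp8 passed, and the median was 0.08 in the mean and 0.39 on day 183, when 2 members, S100a8 and Camp, were higher.

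**Figure D5:**
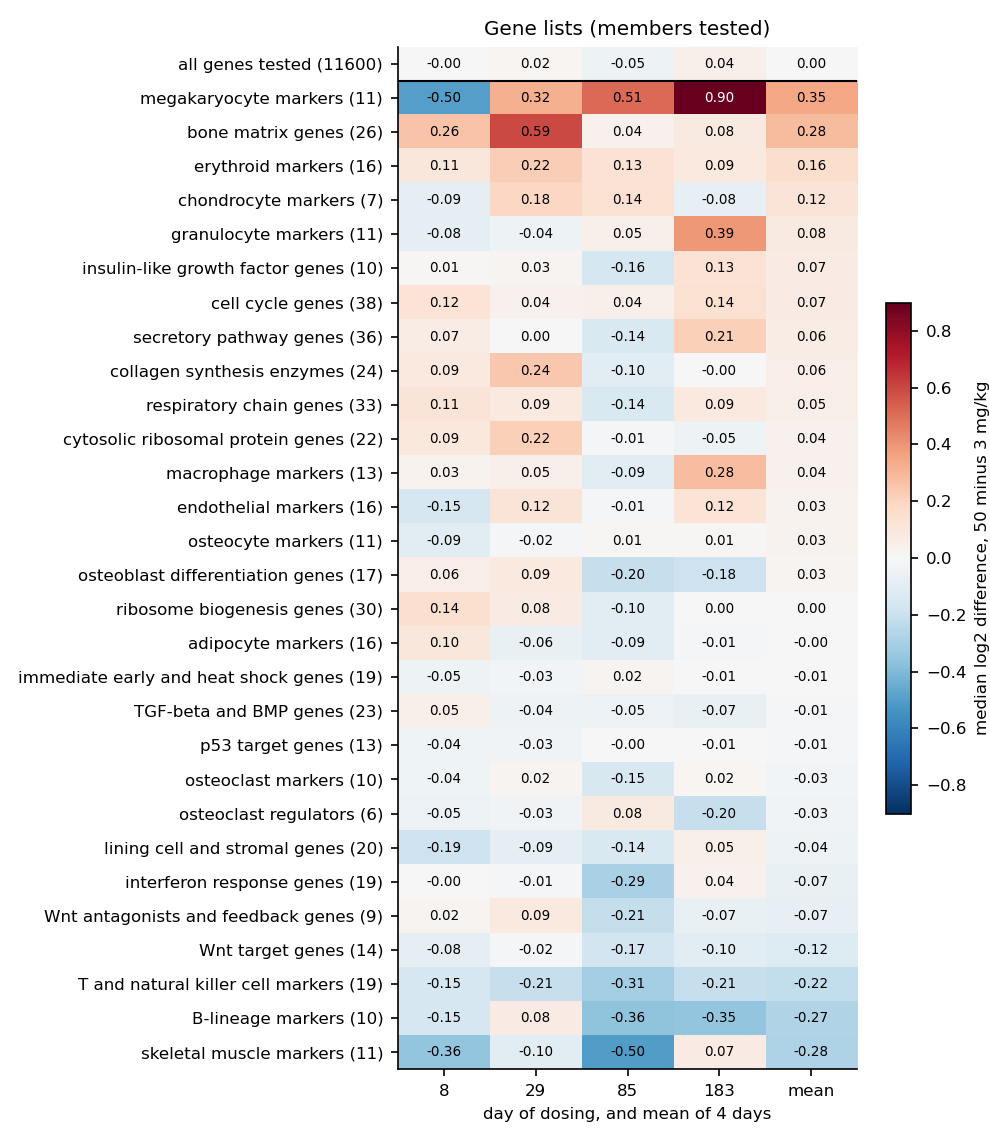
Rows are all genes tested and the 29 gene lists, with the number of members tested in brackets, and columns are the days of dosing and their mean; colours and numbers give the median log2 difference of 50 minus 3 mg/kg. Megakaryocyte markers stand at -0.50 on day 8 and 0.90 on day 183, bone matrix genes at 0.59 on day 29, and T and natural killer cell markers are below 0 on every day.

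The lining cell differences were set against those of osteoblasts and osteocytes, captured from the same bone site, in a fit of all 294 arrays that may hold several arrays of a rat. In that fit the dose difference was called for 94 of 12507 genes in lining cells (0.752%), 268 in osteoblasts (2.14%) and 1859 in osteocytes (14.9%). The difference between lining cells and osteoblasts passed for 3 genes (0.024%), none of them among the 74. These were Slc13a5, a citrate transporter that supplies mineralising osteoblasts, with 0.26 in lining cells and 1.09 in osteoblasts (difference -0.83, adjusted p = 0.0311), the splicing factor Srsf1 (0.52, adjusted p = 0.0311) and Oga, the enzyme that removes O-GlcNAc (0.80, adjusted p = 0.0311). Leaving out 17 or 18 of the 40 lining cell arrays, singly, ended each of these 3 calls.

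Against osteocytes 963 genes differed in their dose difference (7.7%), 20 of them among the 74. Serpinb10 had 0.58 in lining cells and -0.76 in osteocytes (difference 1.33, SE 0.20, adjusted p = 2.52e-08). Ptgis had -0.75 in lining cells and 0.41 in osteocytes (difference -1.16, adjusted p = 1.35e-05), and Meis1 had 0.64 and -0.13 (difference 0.78, adjusted p = 0.0112). Rgs18, Rabgap1l, F5, Cd5, Cd74 and Ighvl1 were also among the 20. Col11a1 and Spp1 were not: Col11a1 had 1.09 in lining cells and 1.25 in osteocytes (difference -0.16, SE 0.30), and Spp1 had -0.998 and -0.87 (difference -0.13, SE 0.26). The smallest p-values against osteocytes were those of Cnr1, a cannabinoid receptor, Bnip3, a mitochondrial stress protein, Tpbg, a membrane glycoprotein that restrains Wnt signalling, and Celf4, an RNA-binding protein. Their differences were -1.71, -1.49, -1.43 and -1.04, and in lining cells their dose differences were between -0.12 and 0.05. Celf4 and Tpbg were not among the genes tested in the lining cell fit. Cnr1 was read near the low end in lining cells, where low-dose arrays had a median of 6.778 and high-dose arrays 6.675. For Cnr1, Celf4 and Tpbg the lining cell values therefore cannot tell a lack of response from a lack of signal.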

How the data were processed

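Linear signal intensities of an Affymetrix rat array (31042 probe sets) were used as deposited by the authors. The submitters' processing notes name RMA, affy 1.38.1, R 3.0.1 and Affymetrix Expression Console, whose roles are not given in the sources used here, nor is whether cell types were normalized together. The intensities were put on the log2 scale here.

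Of the probe sets, 20826 were listed with 1 gene, 436 with several and 9780 with none, and only those with 1 gene were used. Each of 14217 genes was represented by its probe set with the highest mean over the arrays of the fit, so the 2 fits can differ in probe set. A gene was tested if its signal was above the array median in at least 5 lining cell arrays, which left 11600. The 100 lining cell arrays were fitted with a mean per treatment and day (20 groups) in limma 3.58.1 (R 4.3.3, statmod 1.5.0), with Benjamini-Hochberg adjustment over all genes tested at 0.05. Contrasts were 50 minus 3 mg/kg per day and averaged over 4 days, each dose minus vehicle, and an F test of the dose difference over days. A second fit over all 294 arrays (60 groups, 12507 genes) compared cell types. The fits were tested on simulated data. Precision was limited by 5 arrays per group: the median SE was 0.0889 for the mean difference and 0.178 for a day.

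The genes named were the 12 with the largest rise and the 12 with the largest fall among those called, the leading genes of each day, of the F test and of the cell type contrasts, up to 4 members per list by p, and 30 fixed genes, printed in part. Other genes named were members of the lists or genes called in a contrast, chosen after their values were seen. The comparison, its 29 gene lists and the fixed genes were chosen with earlier results of these data known. Alternatives were no filter, quantile normalization, the mean of probe sets, array weights, a fit of the 40 compared arrays alone, the signal range as covariate, and leaving out days or arrays.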

Additional observations from a re-analysis of the deposited data

Results flagged for a closer look

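Within groups of 5 arrays, 6 of 128 groups over 16 measures held an array far from the other 4, and chance gives about 1 in 20. The summed T and natural killer cell markers were 632.36 in the first array at 50 mg/kg of day 183, against 764.44 in the next. The signal range was 2.61 in the third array at 50 mg/kg of day 8, below 3.06 in the next. Among the arrays at 3 mg/kg, Col5a2 was 141.6 in the fifth array of day 85, above 68.95 in the next, and Plek was 2558 in the same array, above 1430. On day 183 Clec1b was 589.5 in the second array at 3 mg/kg, above 418.8, and Spp1 was 77.08 in the first, below 245.8.

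The dose difference varied over the 4 days for 28 genes in limma's F test. Those named were Itgb3 and Pf4 (both adjusted p = 0.0197), Plek, Clec1b and Reep2 (all 0.0273), Champ1 (0.032), Tubb2a (0.0351), Omd and Itga2b (both 0.0378), Abca7 (0.0455) and Vps37d (0.049). Reep2, which shapes the endoplasmic reticulum, had daily differences of -0.76, 0.25, 0.21 and 0.77. Champ1, a chromosome alignment protein, had 0.01, 0.46, -0.77 and 0.33.

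Lining cells differed from osteoblasts in the dose difference for 3 genes, Slc13a5 (-0.83), Srsf1 (0.521) and Oga (0.796). They differed from osteocytes for 963 genes, led by Cnr1 (-1.71), Celf4 (-1.04), Bnip3 (-1.49) and Tpbg (-1.43).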

How the results depend on the processing

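The count of 74 genes depended on the days and the model, while no called gene reversed its sign under any alternative run. It was 158 after quantile normalization, 24 with the 40 compared arrays alone and 210 when the signal range was a covariate. The count was 129 without day 8, 113 without day 29, 7 without day 85 and 48 without day 183, and 48 to 114 with single arrays left out, lowest without the fifth array at 50 mg/kg of day 85 and highest without the fourth at 3 mg/kg of day 29. Of the 74 genes, 71 remained called after quantile normalization, 23 with the 40 arrays alone, 6 without day 85 and 36 with every single array left out. The split of higher and lower was 40 and 34 in the fit reported, 30 and 41 with array weights, and 57 and 24 without the array of outlying signal range.

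On day 8 the 6 genes became 2 after quantile normalization, 10 with array weights, 0 with the 40 arrays alone, 12 with the signal range, 2 without the array of outlying range, and 0 to 23 with single arrays left out. On day 29 the 12 became 46 with array weights, 2 with the 40 arrays and 4 to 19 with single arrays left out. On day 85 the 156 became 279 after quantile normalization (127 higher, 152 lower), 21 with array weights, 54 with the 40 arrays, 243 with the signal range (115 higher, 128 lower), and 54 to 354 with single arrays left out. On day 183 the 86 became 139 after quantile normalization (96 higher, 43 lower), 397 with array weights, 53 with the 40 arrays and 37 to 147 with single arrays left out.

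Against vehicle, the 236 genes at 50 mg/kg became 369 after quantile normalization, 461 with the signal range, 84 without day 85, 106 without day 183 and 167 to 285 with single arrays left out. At 3 mg/kg the count of 0 became 1 without day 85 and 0 to 1 with single arrays left out. Leaving out single vehicle arrays was chosen after seeing the data. The F test's 28 genes became 78 after quantile normalization, 143 with array weights, 0 with the 40 arrays, 46 with the signal range and 0 to 87 with single arrays left out. The 3 genes against osteoblasts became 0 with the mean of probe sets, 1 with array weights and 0 to 5 with single arrays left out. The 963 against osteocytes stayed between 857 and 1283. The fit of 40 arrays has fewer samples to estimate the spread. The cause of these changes, in that fit and in the others, was not tested. No paired analysis was possible because the labels carry no replicate numbers.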
